A study of Mus musculus with 24 samples.

Results

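The 10 genes described here, Cdh5, Kdr, Pecam1, Tek, Tie1, Emcn, Flt1, Eng, Lyve1 and Esam, are markers of endothelial cells, the cells that line blood and lymph vessels. They were chosen by name. For each symbol the probe set annotated to that symbol alone was taken, and each of the 10 had 1 such probe set among the 30702 genes tested. RNA from mouse intestine was measured on 24 single-colour Affymetrix arrays, 4 in each of 6 groups. The groups were organoids from adult intestine after 30 days and after 3 days of culture, organoids from fetal intestine of stage E19 after 30 days and after 3 days, whole adult intestine, and whole P0 intestine, taken at birth. All organoids grew in ENR medium, and the sources used here gave no genotype, strain, sex or part of the intestine. They also did not say whether the arrays of a group came from separate animals or cultures, so each p-value measures the spread between arrays, which may be technical.

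Endothelial cells grow and survive under vascular endothelial growth factor (VEGF), which acts through the receptors Kdr and Flt1. Angiopoietins act through the receptor Tek with its partner Tie1, and Eng is a coreceptor for bone morphogenetic proteins. Cdh5, Pecam1 and Esam hold neighbouring endothelial cells together, Emcn is a surface sialomucin of capillaries and veins, and Lyve1 is the hyaluronan receptor of lymphatic vessels. Organoids are cultures of epithelium, while whole intestine also holds vessels, muscle, connective tissue and blood cells. In bulk RNA such as this, fewer cells of a type and less RNA per cell cannot be told apart.

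Some arrays stood apart on genes other than the members. Fetal day 3 arrays 2 and 3 carried RNA of the pancreatic protease gene Try4 (8.95 and 9.06 on the log2 scale, against 6.9 and 4.43 on arrays 1 and 4) and of the stomach gene Gkn1 (10.33 and 10.15, against 6.87 and 4.64). Array 1 was thus raised in both genes as well, and it stays in the values given without arrays 2 and 3. Adult day 3 array 1 had a log2 level of 8.88 for the fibroblast gene Dcn, against 4.08 to 4.73 on the other 3 arrays of its group, and 6.59 for Try4, against 4.15 to 4.22. P0 arrays 2 and 3 had little signal of Xist, an RNA made in female cells (3.81 and 4.01, against 10.6 and 10.53 on arrays 1 and 4). Xist lay between 9.81 and 11.58 on all organoid arrays and between 3.77 and 4.24 in adult intestine, so between adult organoids and adult intestine the sex of the source and the kind of sample cannot be told apart. Background probes averaged 4.04 on fetal day 3 array 1 and 3.43 to 3.63 on the rest of that group. Negative controls had medians of 3.84 to 4.61 per array. That median is a soft lower bound for signal, and a group whose mean lay under it is called dim below. The epithelial marker list had array means between 10.01 and 10.33 in organoids, between 10.2 and 10.52 in adult intestine and between 9.52 and 9.65 in P0 intestine.

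The promoters of 6 members, Eng, Emcn, Tek, Tie1, Kdr and Flt1, were in the RefSeq promoter table for GRCm38.p6, and the 250 bases before each start were searched on both strands. Those of the receptors Tie1, Tek and Kdr are shown, since they differ in matches to the ETS forms searched. Factors such as Fli1 bind the ETS motif in endothelial genes, and other forms of it were not searched. Capitals mark AGGAAG or CGGAAG, the ETS core with flanks, read on either strand, so that a site on the other strand appears as CTTCCT or CTTCCG. The windows lie at chr4:118489850-118490099 on the minus strand for Tie1, at chr4:94739039-94739288 on the plus strand for Tek and at chr5:75978456-75978705 on the minus strand for Kdr, each printed 5′ to 3′ along its gene.
Tie1: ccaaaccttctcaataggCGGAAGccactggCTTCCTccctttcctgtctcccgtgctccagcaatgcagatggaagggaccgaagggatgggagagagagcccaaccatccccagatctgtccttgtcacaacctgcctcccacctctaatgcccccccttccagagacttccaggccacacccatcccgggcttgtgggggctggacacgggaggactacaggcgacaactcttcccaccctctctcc
Tek: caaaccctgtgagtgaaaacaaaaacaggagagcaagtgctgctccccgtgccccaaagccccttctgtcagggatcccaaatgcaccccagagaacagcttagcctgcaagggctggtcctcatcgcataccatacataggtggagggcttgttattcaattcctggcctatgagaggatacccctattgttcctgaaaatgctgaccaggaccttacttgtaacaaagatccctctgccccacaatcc
Kdr: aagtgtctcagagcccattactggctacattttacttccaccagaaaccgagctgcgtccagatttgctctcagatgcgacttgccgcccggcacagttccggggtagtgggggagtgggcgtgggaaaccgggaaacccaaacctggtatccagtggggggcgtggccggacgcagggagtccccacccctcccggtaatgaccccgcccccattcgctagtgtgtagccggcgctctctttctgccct
The Tie1 window held 1 match of each ETS form searched, and the Tek and Kdr windows held 0. AGGAAG was found in 4 of the 6 member windows and in 29.5% of all 32851 promoters, and CGGAAG in 1 of the 6 and in 13.6%. Either form was in 4 of the 6 and in 39.2% of all promoters. The GATA motif AGATAA (3281 of all promoters) and the forkhead motif TAAACA (3952 of all promoters) were in 0 of the 6, and the TATA box TATAAA (12.4%) was in 1, that of Flt1. A match is a run of letters in this window and was not tested as a binding site.

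The order of the groups was much alike from gene to gene. All 10 members had their highest mean in P0 intestine and their second highest in adult intestine. In 8 of the 10 the third highest was fetal organoids at day 3, and in the other 2, Lyve1 and Esam, it was adult organoids at day 30. The ranges of P0 and adult intestine were apart in all 10, and in 4 of the 10 the range of adult intestine overlapped that of the third group. Over the members as a whole, the mean log2 level per array lay between 4.33 and 4.54 on the 12 organoid arrays other than fetal day 3, between 4.75 and 4.99 on the fetal day 3 arrays, between 5.51 and 5.82 in adult intestine and between 6.78 and 7.2 in P0 intestine.

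**Figure D1:**
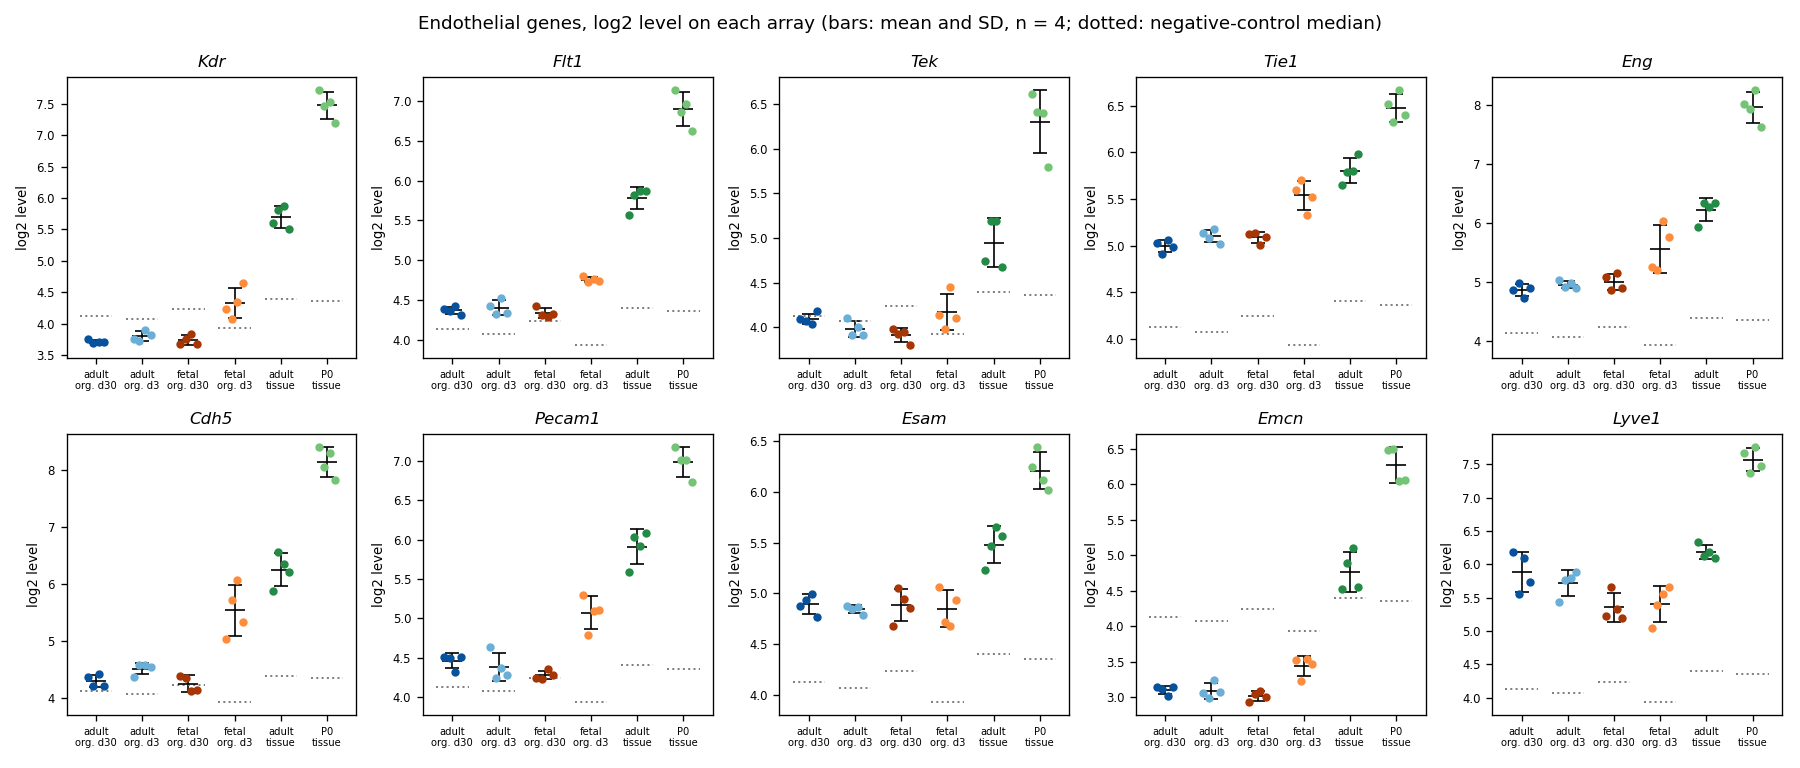
Log2 level of each of the 10 endothelial genes on each array (points, 4 per group), with the group mean and SD as bars and the mean of the group's negative-control medians as dotted lines. Cdh5 averaged 5.55 in fetal organoids at day 3, above the means of the 3 other organoid groups and below those of both tissues. Its range there overlapped that of adult intestine.

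The first comparison set adult against newborn tissue. All 10 members were lower in adult intestine than in P0 intestine at an adjusted p under 0.05 (limma's moderated two-sided test with Benjamini-Hochberg adjustment), and 0 were higher. Of all 30702 genes, 12.2% were called lower. The adult arrays lay below every P0 array for each of the 10, which held for 13.3% of all genes. The differences ran between -1.89 and -0.68 on the log2 scale with a median of -1.37, while the median over all genes was 0.08. The split of all genes depended on the scaling, with 4598 higher and 3733 lower as deposited, but 3079 higher and 4587 lower when arrays were centred on their medians.

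Of the VEGF receptors, Kdr, which carries most of the growth signal, had log2 levels of 5.61, 5.81, 5.88 and 5.5 in adult intestine, against 7.72, 7.46, 7.53 and 7.19 in P0 intestine. The 2 groups did not overlap, and Kdr was lower in adult tissue by a log2 difference of -1.78 ± 0.11 (SE, n = 4 arrays each, limma adjusted p = 1.8e-11). Flt1, a receptor that also traps VEGF, had 5.57, 5.82, 5.87 and 5.87 in adult intestine, against 7.14, 6.86, 6.96 and 6.63 in P0 intestine. Its groups were also apart, with a difference of -1.11 ± 0.09 (limma adjusted p = 8.3e-10). Of the angiopoietin receptor pair, Tek had 4.74, 5.19, 5.19 and 4.68 in adult intestine, against 6.61, 6.41, 6.4 and 5.79 in P0 intestine (-1.35 ± 0.14, limma adjusted p = 8.5e-08). Tie1 differed by the smallest amount of the 10, with 5.65, 5.79, 5.8 and 5.98 in adult intestine, against 6.52, 6.33, 6.67 and 6.4 in P0 intestine (-0.68 ± 0.08, limma adjusted p = 1.4e-06).

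Of the junction genes, Cdh5, the cadherin of endothelial adherens junctions, showed the widest gap. It had 5.89, 6.57, 6.36 and 6.22 in adult intestine, against 8.41, 8.06, 8.31 and 7.83 in P0 intestine, a log2 difference of -1.89 ± 0.17 (limma adjusted p = 6.8e-09). Pecam1, an adhesion protein also made by platelets and some leukocytes, differed by -1.08 ± 0.12 (limma adjusted p = 1.6e-07), and Esam, an adhesion protein that platelets also carry, by -0.73 ± 0.1 (limma adjusted p = 1.1e-05). Eng averaged 6.23 ± 0.19 in adult and 7.96 ± 0.26 in P0 intestine (SD, n = 4 each; difference -1.74 ± 0.15, limma adjusted p = 4.3e-09). Emcn averaged 4.76 ± 0.28 in adult and 6.27 ± 0.25 in P0 intestine (difference -1.51 ± 0.12, limma adjusted p = 1.1e-09). Its adult level was near background, with 3 of 4 arrays above their negative-control median. Lyve1 averaged 6.18 ± 0.11 in adult and 7.57 ± 0.17 in P0 intestine (difference -1.39 ± 0.15, limma adjusted p = 1.1e-07). All 10 calls stood with P0 arrays 2 and 3 left out and with P0 arrays 1 and 4 left out.

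Other endothelial genes moved the same way. Of 28 measured, 17 were lower and 0 higher, with a median difference of -0.38. The 4 with the largest change were Cd93, a receptor of endothelial adhesion (-1.72 ± 0.13, limma adjusted p = 6.5e-10), the tight junction gene Cldn5 (-1.69 ± 0.14), the apelin receptor gene Aplnr (-1.66 ± 0.13) and the phosphatase gene Ptprb (-1.63 ± 0.1). Of 10 lymphatic genes, 8 were lower and 0 higher, among them the guidance gene Sema3d (dim in adult intestine and at least 2.28-fold lower), the VEGF coreceptor gene Nrp2 (-1.8 ± 0.16) and Reln (-1.05 ± 0.07). Of 7 venous genes 3 were lower and 0 higher. The 13 arterial genes were mixed, with 5 lower, led by the Notch target Hey1 (-2.14 ± 0.14), and 3 higher, namely Unc5b (1 ± 0.12), Efnb2 (0.91 ± 0.11) and Dll4 (0.62 ± 0.13). Of 22 transcription factors of endothelium, 7 were lower and 1, Klf4, which gut epithelium also makes, was higher (1.16 ± 0.24, limma adjusted p = 0.00084). Without P0 arrays 2 and 3 the count of lower transcription factors was 4.

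The pathway of Eng moved in both directions. Of 18 ligands, receptors and effectors, 9 were lower and 4 higher in adult intestine. The ligand genes Tgfb3 (-1.71 ± 0.24) and Tgfb2 (-1.37 ± 0.13) and the coreceptor gene Tgfbr3 (-1.32 ± 0.18) were lower. So were the receptor genes Bmpr2 (-0.74 ± 0.1) and Acvrl1 (-0.32 ± 0.12). Id1 (1.03 ± 0.2) and Id3 (0.69 ± 0.14), which are switched on by the pathway in many cell types, were higher. The effector genes were split, with Smad1 (0.63 ± 0.11) and Smad4 (0.4 ± 0.1) higher and Smad5 (-0.78 ± 0.1) and Smad9 (-0.76 ± 0.1) lower. Of 10 other genes of cell junctions, which include the cadherin genes Cdh1 and Cdh2, 5 were higher and 3 lower. The largest change of the list was the fall of Cdh2 (-1.86 ± 0.14, limma adjusted p = 4.6e-10). F11r (0.93 ± 0.14) was among the higher ones, as was Cdh1 (0.54 ± 0.09), which is also on the epithelial list.

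Markers of fibroblasts and of pericytes and vascular smooth muscle moved with these genes between the tissues, while those of other cells did not. Of 11 fibroblast genes 9 were lower and 0 higher in adult intestine, with list means between 6.53 and 6.89 in adult arrays and between 7.54 and 8.1 in P0 arrays. Of 11 pericyte and vascular smooth muscle genes 9 were lower and 0 higher, with list means between 6.1 and 6.8 in adult arrays and between 7.26 and 7.55 in P0 arrays. Of 12 epithelial genes 10 were higher and 0 lower, and of 11 lymphocyte and plasma cell genes 10 were higher and 0 lower. The macrophage and monocyte genes were mixed, with 5 higher and 4 lower of 15. The part of these cell types in the lower endothelial levels was not tested.

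The second comparison followed fetal organoids over culture. Of the 10 members, 7 fell between day 3 and day 30 and 0 rose, while 8.76% of all genes were called lower. In 8 of the 10, Tek being the 8th, every day 30 array lay below every day 3 array, which held for 9.13% of all genes. The median difference of the 10 was -0.43, while that over all genes was -0.03. Negative controls ran the other way, with medians of 4.15 to 4.38 on day 30 arrays and 3.84 to 4.04 on day 3 arrays. As deposited, 2080 of all genes were called higher and 2690 lower, while centring gave 3485 higher and 1829 lower.

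Cdh5 had log2 levels of 4.4, 4.36, 4.12 and 4.15 in fetal organoids at day 30, against 5.05, 5.72, 6.08 and 5.34 at day 3. The day 3 arrays differed widely among themselves and all lay above the day 30 arrays, of which 2 of 4 were above their negative-control median. The difference was -1.29 ± 0.17 (n = 4 arrays each, limma adjusted p = 1.1e-05). Pecam1 had 4.24, 4.23, 4.35 and 4.28 at day 30, against 5.3, 4.79, 5.09 and 5.1 at day 3 (-0.79 ± 0.12, limma adjusted p = 5e-05). Tie1 had 5.12, 5.14, 5.01 and 5.09 at day 30, against 5.6, 5.7, 5.33 and 5.52 at day 3 (-0.45 ± 0.08, limma adjusted p = 0.00073). Cdh5 (4.26 against 4.24) and Pecam1 (4.28 against 4.24) averaged close to their negative-control medians at day 30, so their falls were measured against a level near background. These 3 genes were low and even at day 30 and higher on each day 3 array.

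Flt1 had 4.42, 4.31, 4.29 and 4.32 at day 30, against 4.8, 4.72, 4.76 and 4.74 at day 3 (-0.42 ± 0.09, limma adjusted p = 0.0016). At day 30 Flt1 averaged 4.34 against a negative-control median of 4.24, so its fall too was measured against a level near background. Kdr had 3.67, 3.75, 3.84 and 3.68 at day 30, against 4.23, 4.08, 4.35 and 4.65 at day 3 (limma adjusted p = 0.00062). The day 30 group of Kdr was dim, so its fall amounts to at least 1.06-fold only. Eng had 5.09, 4.86, 5.15 and 4.91 at day 30, against 5.26, 5.2, 6.04 and 5.77 at day 3. Its fall of 0.57 on the log2 scale (limma adjusted p = 0.011) was not called without day 3 array 3 (-0.41, adjusted p = 0.057). Emcn passed the test as well (limma adjusted p = 0.018), but both its groups were dim and no fold is given, and the call was lost without day 3 array 3 (-0.39, adjusted p = 0.057) or day 30 array 1 (-0.39, adjusted p = 0.054). It was also lost when arrays were centred (-0.33, limma adjusted p = 0.075).

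The 3 members that did not pass were Tek, Lyve1 and Esam. Tek averaged 3.91 ± 0.08 at day 30, a dim group, and 4.17 ± 0.2 at day 3 (SD, n = 4 each; limma adjusted p = 0.25). Lyve1 averaged 5.35 ± 0.21 at day 30 and 5.41 ± 0.27 at day 3 (difference -0.06 ± 0.15). Esam averaged 4.89 ± 0.16 at day 30 and 4.85 ± 0.18 at day 3 (difference 0.03 ± 0.1). Both were above the negative-control median on all arrays of both groups. With fetal day 3 arrays 2 and 3 left out, 7 members were again called lower, and Cdh5 then differed by -0.94 (limma adjusted p = 0.00065).

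**Figure D2:**
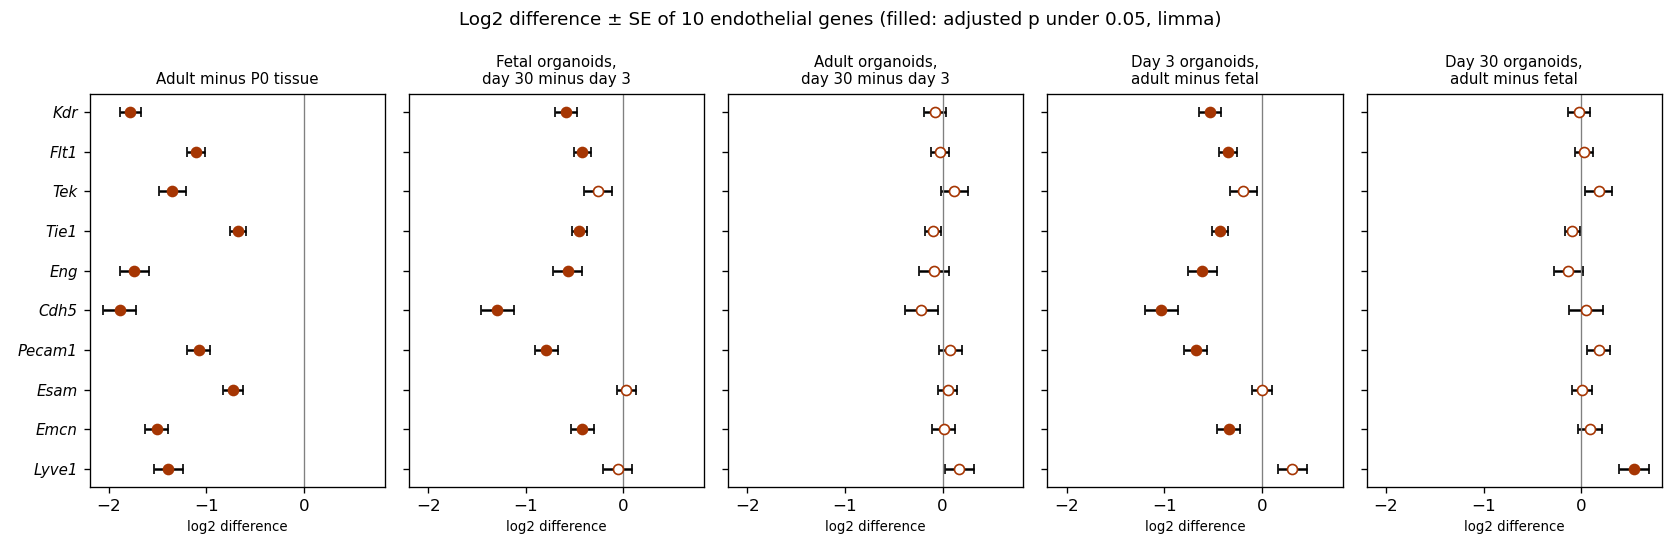
Log2 difference (points) with its SE (bars) of the 10 endothelial genes in 5 comparisons, each with the first-named group minus the second. Filled points passed an adjusted p under 0.05. All 10 were lower in adult tissue, 7 fell in fetal organoids over culture (6 when arrays were centred), 0 passed in adult organoids over culture, 7 were lower in adult than in fetal organoids at day 3, and 1 was higher at day 30.

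Markers of several cell types that are not epithelium fell over the same days. Of the 28 other endothelial genes 15 fell and 0 rose, with 10 and 0 when arrays were centred on their median, and 9 and 0 without day 3 arrays 2 and 3. Cd93 was at least 2.14-fold lower at day 30, where it was dim, and the scavenger receptor gene Stab1, which macrophages also make, fell by 0.72 on the log2 scale (limma adjusted p = 3e-06). Of 15 macrophage and monocyte genes 10 fell and 0 rose, with list means between 4.99 and 5.19 at day 30 and between 5.69 and 6.06 at day 3. The mannose receptor gene Mrc1 differed by -1.78 ± 0.16 (limma adjusted p = 5.9e-08). Of 11 fibroblast genes 10 fell and 0 rose, with list means between 5.06 and 5.35 at day 30 and between 5.77 and 6.72 at day 3, and 6 fell without day 3 arrays 2 and 3.

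Of 11 pericyte and vascular smooth muscle genes 6 fell and 0 rose, with list means between 4.66 and 4.73 at day 30 and between 5.11 and 5.26 at day 3. The smooth muscle actin gene Acta2 differed by -1.73 ± 0.19 (limma adjusted p = 1.1e-06). Of 8 listed platelet genes 5 were measured, of which 3 fell and 0 rose. Their list means lay between 5.24 and 5.36 at day 30 and between 5.8 and 6.58 at day 3. Pf4, the platelet factor gene, was among those that fell (-2.59 ± 0.25, limma adjusted p = 1.9e-07). Whether its RNA came from platelets was not tested. Of 11 lymphocyte and plasma cell genes 1, Ptprc, passed as lower, and it was dim at both days. The erythroid list gave 0 calls of 4 (limma), with 0 of 4 also at an unadjusted p under 0.05. The part of these cells in the fall of the 7 members was not tested.

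Regulators and signals of endothelium were measured as well. Of the 22 transcription factors 9 fell and 0 rose, but 4 fell and 1 rose when arrays were centred. Elk3, an ETS factor found in endothelium and mesenchyme, differed by -1.22 ± 0.19 (limma adjusted p = 8.3e-05), and Fli1, an ETS factor of endothelium and blood cells, by -0.49 ± 0.11 (limma adjusted p = 0.0026). Of the 18 genes of the pathway of Eng 7 fell and 0 rose, but 5 fell and 3 rose when arrays were centred, and 4 fell and 1 rose without day 3 arrays 2 and 3. The receptor gene Tgfbr2 differed by -0.81 ± 0.15 (limma adjusted p = 0.00073) and the pathway inhibitor Smad7 by -0.62 ± 0.1 (limma adjusted p = 0.00022).

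**Figure D3:**
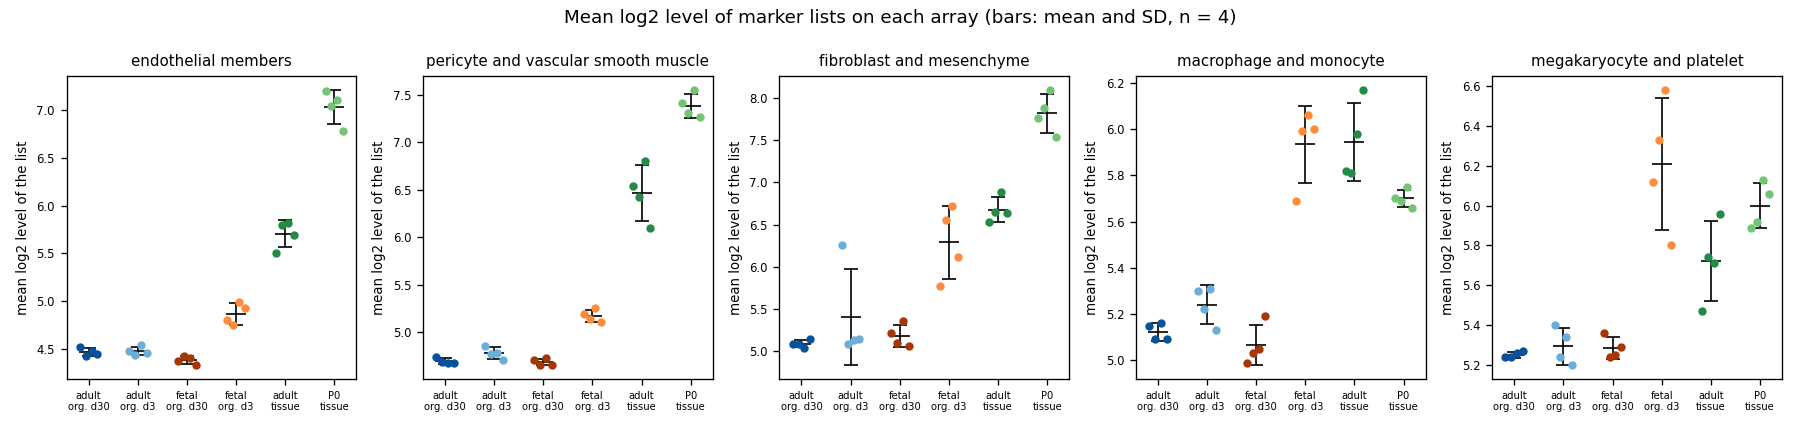
Mean log2 level per array (points, 4 per group) of the 10 endothelial genes and of 4 marker lists, with the group mean and SD as bars. In fetal organoids the list means of macrophage genes lay between 4.99 and 5.19 at day 30 and between 5.69 and 6.06 at day 3, while the endothelial means lay between 4.33 and 4.43 at day 30 and between 4.75 and 4.99 at day 3.

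In adult organoids none of the members passed the test over culture. Of the 10 0 were called between day 30 and day 3 in either direction by limma, and 0 of the 10 had an unadjusted p under 0.05. Of all 30702 genes 0.0489% were called, and 2581 had an unadjusted p under 0.05. Cdh5 had 4.37, 4.22, 4.42 and 4.21 at day 30, against 4.38, 4.58, 4.58 and 4.55 at day 3 (-0.22 ± 0.17, limma adjusted p = 0.85). Pecam1 had 4.51, 4.5, 4.32 and 4.51 at day 30, against 4.64, 4.24, 4.37 and 4.28 at day 3 (0.08 ± 0.12). The largest positive difference, that of Lyve1, was 0.17 ± 0.15. Kdr, Tek and Emcn were dim at both days. At day 3 Cdh5 (4.52), Pecam1 (4.38) and Flt1 (4.4) already averaged close to the negative-control median of 4.07. A fall in any of these members thus had little room to show. Adult day 3 array 1, with its raised Dcn, had a fibroblast list mean of 6.26, against 5.08 to 5.14 on the other 3 arrays, while its endothelial mean was 4.48, against 4.44 to 4.54.

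The change over culture was tested for a difference between the ages. The change of fetal organoids minus that of adult organoids was -1.07 ± 0.24 for Cdh5 (limma adjusted p = 0.011) and -0.87 ± 0.17 for Pecam1 (limma adjusted p = 0.0033). These were 2 of the 10 members, and 1.97% of all genes were called lower. Both lay near background in adult organoids at day 3, where a fall had little room to show, which limits this test. Cdh5 was not called without fetal day 3 arrays 2 and 3 (-0.72, limma adjusted p = 0.085), while Pecam1 was (-1, adjusted p = 0.0029). For Kdr the difference was -0.52 ± 0.16 (limma adjusted p = 0.083, and 0.041 without fetal day 3 array 2), and for the other 7 it did not pass either. For Kdr, Eng, Tie1, Flt1 and Emcn, which fell in fetal organoids, the change is thus not shown to differ from that in adult organoids.

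The next comparison set adult against fetal organoids of the same day. At day 3, 7 members were lower in adult organoids and 0 were higher, while 10.1% of all genes were called lower. This comparison shares its fetal day 3 arrays with the change over culture. Cdh5 averaged 4.52 ± 0.09 in adult and 5.55 ± 0.45 in fetal organoids (SD, n = 4 each; -1.03 ± 0.17, limma adjusted p = 9.3e-05). Pecam1 differed by -0.68 ± 0.12 (adjusted p = 0.00014), Eng by -0.61 ± 0.15 (adjusted p = 0.0041) and Tie1 by -0.43 ± 0.08 (limma adjusted p = 0.00056). Flt1 differed by -0.35 ± 0.09 (limma adjusted p = 0.0043), and Kdr, dim in adult organoids, was at least 1.2-fold lower (limma adjusted p = 0.001). Emcn passed (limma adjusted p = 0.039), but was dim in both groups, and its call was lost without any one of 6 of the 8 arrays. Of the 28 other endothelial genes 12 were lower and 0 higher, among them Cd93 (-1.19 ± 0.13, limma adjusted p = 8.9e-07) and Esm1, a proteoglycan of sprouting vessels (-0.65 ± 0.1, limma adjusted p = 7.4e-05). Of the macrophage genes 10 of 15 were lower and 1 higher, and of the fibroblast genes 8 of 11 were lower and 0 higher. Their part in the result was not tested.

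At day 30 1 member was called, Lyve1, which was higher in adult organoids, while 6.8% of all genes were called higher. As deposited, 2088 of all genes were higher and 666 lower, while a second quantile normalization gave 1365 and 1246 and left no member called (Lyve1 0.47, limma adjusted p = 0.063). Lyve1 had log2 levels of 6.18, 5.55, 6.09 and 5.73 in adult organoids, against 5.23, 5.66, 5.33 and 5.19 in fetal organoids. A fetal array lay above the lowest adult array, so the groups overlapped. The difference was 0.54 ± 0.15 (limma adjusted p = 0.023), and the call was lost without adult array 1 (0.44, adjusted p = 0.1) or 3 (0.47, adjusted p = 0.078) and without fetal array 1 (0.49, adjusted p = 0.067), 3 (0.53, adjusted p = 0.053) or 4 (0.48, adjusted p = 0.06). At day 3 Lyve1 differed by 0.31 ± 0.15 in the same direction without passing (limma adjusted p = 0.14). Macrophages can also make Lyve1, and of the 15 macrophage genes 0 were called at day 30 by limma, with 3 at an unadjusted p under 0.05. Of all 30702 genes, 6186 had an unadjusted p under 0.05 in this comparison, a share much like that of the macrophage genes. The part of macrophages in the Lyve1 difference was not tested.

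Organoids were then set against whole tissue. Fetal organoids at day 3 were lower than P0 intestine in all 10 members, where 13.8% of all genes were called lower, although the source was E19 and the tissue P0. Of all genes 9378 were higher and 4225 lower as deposited, and 6101 higher and 5138 lower when centred. Kdr had 4.23, 4.08, 4.35 and 4.65 in fetal organoids at day 3, against 7.72, 7.46, 7.53 and 7.19 in P0 intestine (-3.15 ± 0.11, limma adjusted p = 2.5e-15). Tie1 differed by -0.95 ± 0.08. Emcn, dim in the organoids, was at least 5.06-fold lower (limma adjusted p = 6.9e-14), so it has no rank among these gaps. Of the 28 other endothelial genes 21 were lower and 0 higher, led by Ptprb (-2.85 ± 0.1, limma adjusted p = 4e-15). Pericyte and smooth muscle genes were lower in 10 of 11, while the macrophage genes were mixed, with 5 higher and 3 lower of 15.

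Adult organoids at day 3 were lower than adult intestine in all 10 members, where 13.5% of all genes were called lower. Both comparisons of adult organoids share the adult intestine arrays. At day 30 it was 9 of the 10, where 15.2% of all genes were called lower. Cdh5 differed from adult intestine by -1.74 ± 0.17 at day 3 (limma adjusted p = 1.7e-08) and by -1.96 ± 0.17 at day 30 (limma adjusted p = 1.9e-09). Kdr, dim in the organoids, was at least 3.1-fold lower at day 3 and at least 2.96-fold lower at day 30. Lyve1 was the exception at day 30. It was lower by 0.46 on the log2 scale at day 3 (-0.46 ± 0.15, limma adjusted p = 0.016), a call lost without adult day 3 array 1 (-0.36, adjusted p = 0.073) or adult intestine array 1 (-0.41, adjusted p = 0.05). At day 30 it differed by -0.3 ± 0.15 (limma adjusted p = 0.13), and it passed without adult day 30 array 1 (-0.4, adjusted p = 0.048). Lyve1 also passed at day 30 after a second quantile normalization (-0.41, limma adjusted p = 0.039). Of the 28 other endothelial genes 20 were lower at day 3 and 24 at day 30, with 0 higher, and Plvap, a protein of capillary diaphragms, differed by -1.91 ± 0.2 at day 3 (limma adjusted p = 6.5e-08).

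Markers of other cells of the gut wall were also lower in adult organoids than in adult intestine. At day 3 these were 10 of 11 fibroblast genes, 10 of 11 pericyte and smooth muscle genes, 10 of 15 macrophage genes and 9 of 11 lymphocyte genes. At day 30 they were 11, 10, 11 and 10 of the same lists. At day 3 1 macrophage gene was higher, and otherwise 0 genes of these 4 lists were. The pericyte list means lay between 4.68 and 4.74 in adult organoids at day 30, between 4.71 and 4.86 at day 3 and between 6.1 and 6.8 in adult intestine. Their part in the lower endothelial levels was not tested.

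Signals that act on these receptors were measured too, in a list that also held other receptor genes such as Flt4 and Plxnd1. In adult against P0 intestine, 9 of its 13 measured genes were lower and 0 higher, and 5 without P0 arrays 2 and 3. Angpt1, among the lower ones, was dim in both tissues. Vegfc, a ligand of the lymphatic receptor, averaged 6.15 ± 0.13 in adult and 7.11 ± 0.21 in P0 intestine (SD, n = 4 each; -0.96 ± 0.11, limma adjusted p = 1.9e-07). Vegfa, the main ligand of Kdr and named here after its values were seen, averaged 8.67 ± 0.11 in adult and 9.19 ± 0.12 in P0 intestine (-0.52 ± 0.18, limma adjusted p = 0.037), a call lost without any one of P0 arrays 1, 2 and 3 or adult arrays 1, 3 and 4, and without either pair of P0 arrays. Vegfa in fetal organoids averaged 8.27 ± 0.41 at day 30 and 8.22 ± 0.03 at day 3, where Kdr was dim at day 30.

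Angpt2, a ligand of Tek, averaged 5.36 in fetal organoids at day 3 and 5.45 in P0 intestine (-0.09, limma adjusted p = 0.75). It rose by 1.03 ± 0.22 over culture of fetal organoids (limma adjusted p = 0.0019), where it averaged 6.39 ± 0.19 at day 30 and 5.36 ± 0.38 at day 3, but did not pass without fetal day 3 arrays 2 and 3 (0.71, adjusted p = 0.079). In adult organoids it was higher than in fetal organoids at day 3 (1.47 ± 0.22, limma adjusted p = 3.1e-05) and at day 30 (0.93 ± 0.22, limma adjusted p = 0.008), where the groups overlapped. Against adult intestine it was higher by 1.54 ± 0.22 at day 3 (limma adjusted p = 4.3e-06) and by 2.03 ± 0.22 at day 30 (limma adjusted p = 6.2e-08). Pgf, a ligand of Flt1, was at least 1.98-fold lower in fetal organoids at day 30 than at day 3, being dim at day 30 (limma adjusted p = 7.9e-06).

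**Figure D4:**
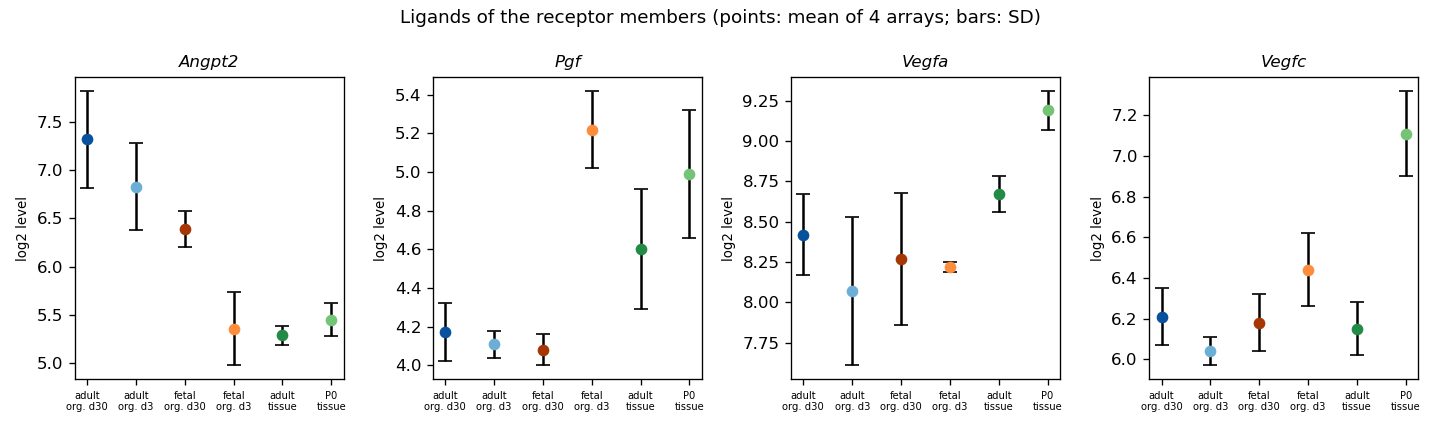
Mean log2 level (points, n = 4 arrays) and SD (bars) of 4 ligand genes in the 6 groups. Angpt2 averaged 7.32 in adult organoids at day 30 and 5.29 in adult intestine, while Vegfc averaged 6.15 in adult and 7.11 in P0 intestine.

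Across the 24 arrays the members followed one another, and they share those arrays and groups. Pearson's r over arrays lay between 0.897 and 0.994 for the 36 pairs without Lyve1 and between 0.819 and 0.917 for the 9 pairs with it. After each group's mean was taken off, r lay between -0.368 and 0.729 with a median of 0.38. The search for like genes left out the 10 members and predicted genes with provisional names. Of the rest, the genes most like Cdh5 over 24 arrays were Plekhh2 (r = 0.989), Ednrb (0.987), Lrrc8c (0.987), Hip1 (0.987) and Pip4k2a (0.985). Those most like Lyve1 were Myom1 (0.94), Ccser2 (0.94), Nexn (0.939), Clint1 (0.935) and Myocd (0.931).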

How the data were processed

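Total RNA was labelled with biotin and hybridised to 24 single-colour arrays, 4 per group, per the labels. The deposited table holds log2 values, made by the authors with Affymetrix Expression Console and RMA, per the submitters' processing notes. Not given in the sources used here are the software versions, the build and the sets of arrays normalized jointly. Of 65956 transcript clusters, 31258 named 1 gene and 1492 named several and were left out. For 441 genes with over 1 cluster the highest mean was used, which gave 30702 genes.

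A single limma (3.58.1, R 4.3.3) model over all 24 arrays gave each group a mean, without a filter on low values. A filter tried as an alternative asked that a gene exceed the median gene in 4 or more of the 24 arrays. It kept all 10 members, but the 4 P0 arrays alone were enough for that. No member was under 5.79 in P0 intestine (Tek), while the array medians lay between 5.0 and 5.22. Passing this filter therefore does not show signal of a member in organoids. Each of 9 comparisons used limma's moderated two-sided test with Benjamini-Hochberg adjustment over all genes, with calls at an adjusted p under 0.05. A dim group's fold was bounded by the arrays' negative-control medians. The model did not pair arrays by replicate number. Correlations of same-numbered deviations ran from -0.31 to 0.3. Differently numbered arrays were not compared, so these values cannot show whether arrays were paired. The fit was tested on simulated data. The members, lists and tests were chosen with earlier results of these data known. Named genes are the 10 members, up to 4 called genes of each list with the largest change and any called gene against its list. The 5 genes most like Cdh5 and Lyve1, with predicted genes of provisional name left out, are named too. Of all these the text prints a part. Precision is limited by the 4 arrays in each group. Of the lists, 28 of 30 other endothelial genes and 13 of 14 ligand and coreceptor genes were measured. Python 3.11.15 with numpy 2.4.6, pandas 2.3.3 and matplotlib 3.10.9 was used for annotation and figures.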

Additional observations from a re-analysis of the deposited data

Results flagged for a closer look

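The change over culture differed between fetal and adult organoids, by the test of the difference itself, for Cdh5 (-1.07) and Pecam1 (-0.87). Of the 60 sets of 4 arrays, 1 for each member and group, 4 had an array far from the others, and chance gives about 1 in 20. Cdh5 was 4.38 on adult organoid day 3 array 1, below the other 3. Pecam1 was 4.32 on adult organoid day 30 array 3, below the other 3. On adult intestine array 1 Flt1 was 5.57 and Eng was 5.94, both below the other 3 arrays of that tissue.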

How the results depend on the processing

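The count of members called at day 30 between adult and fetal organoids, 1 in the report, was 0 with the compared groups alone, with arrays centred on their median, with a second quantile normalization and at an adjusted p under 0.01, and ran between 0 and 1 with 1 array left out. The cause was not tested. The count for the difference of culture changes, 2 in the report, was 1 at an adjusted p under 0.01 and 1 without fetal day 3 arrays 2 and 3. The other 7 counts stayed within 1.5 times under every setting. With the replicate block, the members called lower numbered 10 in adult tissue and 7 in fetal organoids over culture, and Emcn at day 3 between adult and fetal organoids was not called (-0.34, adjusted p = 0.051), with no other call changed. No called difference of a member changed sign, while 8 uncalled ones near 0 did with 1 array left out, such as Esam over fetal culture (0.03, between -0.02 and 0.1). Of single members, Eng over fetal culture was not called with the compared groups alone (adjusted p = 0.093). Flt1 then passed in the difference of culture changes (adjusted p = 0.032). Centring moved the share of genes called higher over fetal culture to 11.4% against 5.96% lower, where the values as deposited gave 6.77% and 8.76%. Signal near the negative controls limits Kdr, Tek and Emcn in organoids and Emcn in adult intestine. It also limits Cdh5, Pecam1 and Flt1 in fetal organoids at day 30 and in adult organoids, where their values are near that floor.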
